A study of Homo sapiens with 16 samples.

Results

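The insulin-like growth factor (IGF) system was examined through 9 of its genes, which are 6 binding proteins (IGFBP1, IGFBP2, IGFBP3, IGFBP4, IGFBP6 and IGFBP7) and 3 receptors (IGF1R, IGF2R and INSR). They were taken by symbol from expression tables of 18227 genes, and each was found once. The tables describe 2 human lung cancer cell lines, A549 and H2023, both of the non-small cell type. Within a line, wild-type cells stood beside cells labelled as a ZC3H12A knockout, and both were grown either for 3 days in normal culture (titled Parent) or for 7 days in a culture said to enrich stem cells (titled Onco, here called oncosphere culture). The 2 lines, 2 genotypes and 2 cultures made 8 groups of 2 libraries, 16 in all. Culture type and days in culture changed together, and their parts cannot be told apart. The titles name a single clone of each line for the libraries labelled knockout, so the edit cannot be told apart from other properties of that clone. ZC3H12A encodes Regnase-1, an RNase that degrades selected mRNAs.

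IGFs are small secreted hormones that drive growth and survival by binding IGF1R, a receptor tyrosine kinase at the cell surface that signals through IRS adaptors to PI3K and AKT. INSR, the insulin receptor, is its closest relative and can pair with it. IGF2R, which is also the cation-independent mannose 6-phosphate receptor, has no kinase: it takes up IGF2 for breakdown and carries newly made lysosomal enzymes. The IGF-binding proteins are secreted proteins that hold IGFs away from IGF1R, or release them once a protease has cut the binding protein. IGFBP7 binds IGFs only weakly and is often set apart from the others.

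Levels are the authors' TPM (length-scaled transcript abundances), which are scaled for transcript length and for the total of each library, so that genes can be compared with each other. Nothing in the labels says whether the 2 libraries of a group came from separate cultures, so p-values measure only the spread between these libraries. TPM retains no depth, and the depth of each library is unknown. Between 13824 and 14508 genes reached 1 TPM per library, and the mitochondrial share of TPM was 10.3% to 18.7% in normal and 19.5% to 25.6% in oncosphere culture. The mRNA of the targeted gene, ZC3H12A, was lower in the libraries labelled knockout in A549 normal culture (30.72 and 34.88 TPM in wild type but 16.90 and 19.93 in those labelled knockout). In the other 3 comparisons both libraries labelled knockout lay above both wild-type libraries. Their means were 57.9 against 48.8 TPM in A549 oncosphere, 41.5 against 28.3 TPM in H2023 normal and 81.9 against 29.5 TPM in H2023 oncosphere culture. The authors' deposited table called ZC3H12A higher in each of these, with log2 fold changes of 0.45, 0.55 and 1.48. The edit itself cannot be checked from these mRNA levels, and libraries are called by their label throughout. The 5 epithelial markers (KRT8, KRT18, KRT19, EPCAM and CDH1) summed to between 1450 and 10677 TPM. Most of this was KRT8 and KRT18, with means of 3209 and 2612 TPM. KRT19 and EPCAM went down to 0.29 and 0.37 TPM and reached 1 TPM in 14 and 13 of 16 libraries. The 3 fibroblast markers measured summed to at most 10.1 TPM, and PECAM1 of endothelium reached at most 2.76 TPM. Of the lung lineage markers only NAPSA was measured, at 1.02 to 6.03 TPM. Of the leukocyte markers CD68 and CD14 were measured, and their sum was 31.3 to 226 TPM. In bulk RNA, fewer cells that express a gene and less RNA per cell cannot be told apart.

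The proximal promoters of 3 members are shown because the results below turn on them. IGFBP3 and IGFBP4 make up most of the binding protein mRNA. They went opposite ways with the culture in A549 wild type and both H2023 genotypes. In A549 labelled knockout neither passed the test used below. IGF2R is the receptor that differed between the lines in both cultures. RefSeq promoters (GRCh38.p14) were matched by symbol for 7 of the 9 members, not for IGFBP1 and IGFBP7. Each sequence runs from 140 to 11 bases before the RefSeq start, 5′ to 3′ on the gene's own strand. For IGFBP3, RefSeq and GENCODE place the start differently. Its window lies inside the GENCODE span of the gene given below, which on the - strand starts at 45921874. Capitals mark TATAAA or TATATA (forms of the TATA box), GGGCGG on either strand (the GC box, CCGCCC when reversed) and CACGTG (the E-box bound by factors such as MYC and USF, which reads the same on both strands). Neighbouring GC boxes can overlap.
IGFBP3, chr7:45921283-45921412, - strand: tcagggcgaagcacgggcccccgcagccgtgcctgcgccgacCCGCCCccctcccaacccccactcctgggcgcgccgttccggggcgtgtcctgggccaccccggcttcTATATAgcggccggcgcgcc
IGFBP4, chr17:40443310-40443439, + strand: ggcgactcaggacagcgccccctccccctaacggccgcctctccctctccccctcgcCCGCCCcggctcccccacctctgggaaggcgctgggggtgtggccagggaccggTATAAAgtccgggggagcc
IGF2R, chr6:159968942-159969071, + strand: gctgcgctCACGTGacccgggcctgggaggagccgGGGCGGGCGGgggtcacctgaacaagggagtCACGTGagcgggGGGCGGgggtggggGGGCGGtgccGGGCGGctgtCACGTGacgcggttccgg
The 250 bases before the start were searched on both strands. IGFBP3 had TATATA starting 30 bases before the start, and IGFBP4 had TATAAA starting 29 bases before it. Among 35116 RefSeq promoters of the same length, 3.73% held TATATA and 10.7% held TATAAA. IGF2R held neither of these motifs. Its window held CACGTG 3 times, at 132, 74 and 28 bases before the start, and 6.34% of all promoters held that motif at least once. GGGCGG occurred 6 times in the IGF2R window, which has a GC content of 79.2%, and in 42.6% of all promoters. A match describes the letters in the window and does not show that a factor binds there.

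IGFBP4 and IGFBP3 were the abundant members, and the make-up of the binding protein mRNA pool differed between the cultures. IGFBP4 (chromosome 17, 40443461 to 40457731 in GRCh38, + strand), a secreted inhibitor of IGF action that PAPPA cleaves, ranged from 291.84 to 2196.52 TPM and ranked between 67 and 391 of all genes in a library. IGFBP3 (chromosome 7, 45912245 to 45921874, - strand), the main carrier of IGFs in blood, ranged from 105.76 to 1911.06 TPM. IGFBP4 held 70.2% to 79.1% of the summed TPM of the 6 binding proteins in all 8 normal-culture libraries, and IGFBP3 held 7.77% to 20.1% there. In oncosphere culture the order turned in A549 wild type, where IGFBP3 held 63.4% and 57.5% of the pool and IGFBP4 20.9% and 25.5%. In the A549 oncosphere libraries labelled knockout IGFBP3 held 33.2% and 23.2% and IGFBP4 held 55.7% and 64%, so IGFBP4 stayed the larger share. The H2023 oncosphere libraries gave IGFBP3 shares of 59.8% and 38.6% in wild type and 53.8% and 53.1% in the libraries labelled knockout. The second wild-type library of H2023 oncosphere culture was the only one of those 4 in which IGFBP4 exceeded IGFBP3, at 43.8%, and its summed TPM of 667 was the lowest of all 16 libraries.

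**Figure D1:**
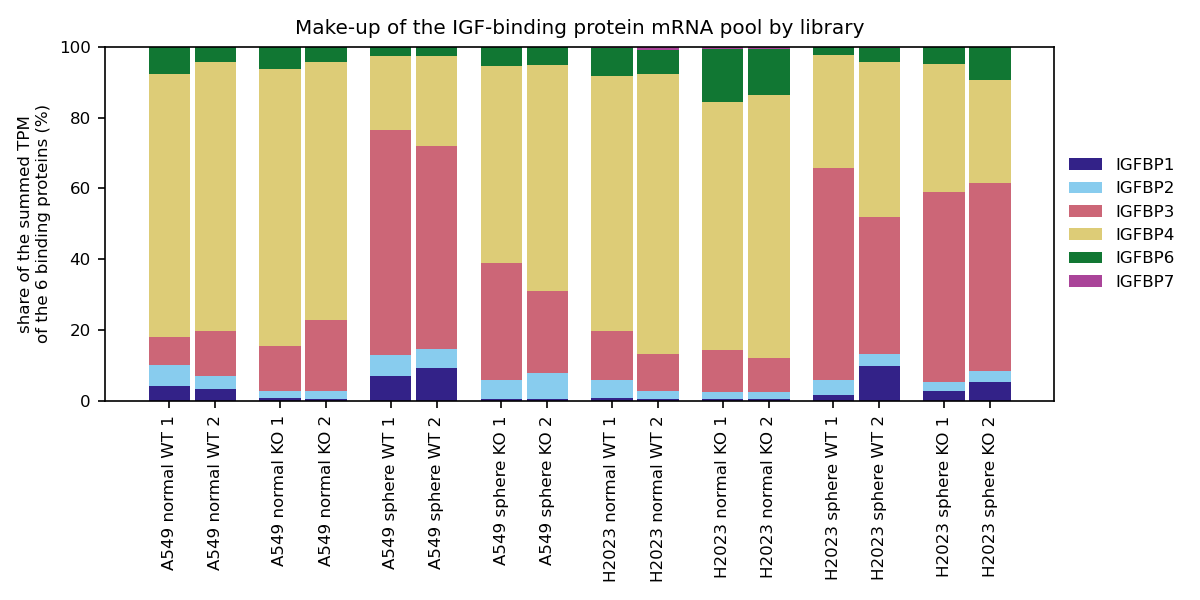
Share (%) of each of the 6 IGF-binding proteins in their summed TPM, 1 bar per library. IGFBP4 takes 70.2% to 79.1% of every normal-culture bar, and IGFBP3 takes the larger part (63.4% and 57.5%) of the A549 wild-type oncosphere bars; "sphere" stands for oncosphere culture, WT for wild type and KO for libraries labelled knockout.

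The remaining binding proteins were less abundant. IGFBP6 (chromosome 12, 53097436 to 53102345, + strand), which prefers IGF2 over IGF1, ranged from 26.84 to 238.21 TPM with a median of 101 TPM. IGFBP2 (chromosome 2, 216632828 to 216664436, + strand), a binding protein common in fetal tissue and tumours, ranged from 24.28 to 179.37 TPM. IGFBP1 (chromosome 7, 45888357 to 45893668, + strand) is best known as a liver product that insulin represses. It had the widest relative range of the well-expressed members, from 4.58 to 305.26 TPM, and its gene lies 18576 bases from IGFBP3. IGFBP7 (chromosome 4, 57030773 to 57110385, - strand) reached 1 TPM in 9 of 16 libraries and 11.72 TPM at most. IGFBP5, a further binding protein that lies 7668 bases from IGFBP2, ranged from 0 to 6.96 TPM.

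Among the receptors, IGF2R and IGF1R mRNA were of similar abundance and INSR was low. IGF2R (chromosome 6, 159969099 to 160113507, + strand) ranged from 22.34 to 84.80 TPM and IGF1R (chromosome 15, 98648539 to 98964530, + strand) from 16.74 to 64.59 TPM. INSR (chromosome 19, 7112255 to 7294034, - strand) stayed between 1.15 and 3.64 TPM. The summed TPM of the 3 receptors was 46.6 to 153, against 667 to 3323 for the binding proteins. For IGF2R the 4 H2023 groups came first in the order of means and the 4 A549 groups last, with no overlap between the lines. The order ran from H2023 normal culture labelled knockout (82.4 ± 3.33 TPM, SD, n = 2) down to A549 oncosphere wild type (25.3 ± 4.14 TPM, SD, n = 2). Within it, the 2 H2023 groups labelled knockout overlapped each other, as did the 2 H2023 wild-type groups and the 2 A549 wild-type groups. For IGF1R the first 3 groups, at means of 54.2, 54.1 and 53.7 TPM, overlapped (both H2023 normal-culture groups and A549 normal culture labelled knockout), and the lowest was A549 oncosphere wild type at 19.2 TPM.

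**Figure D2:**
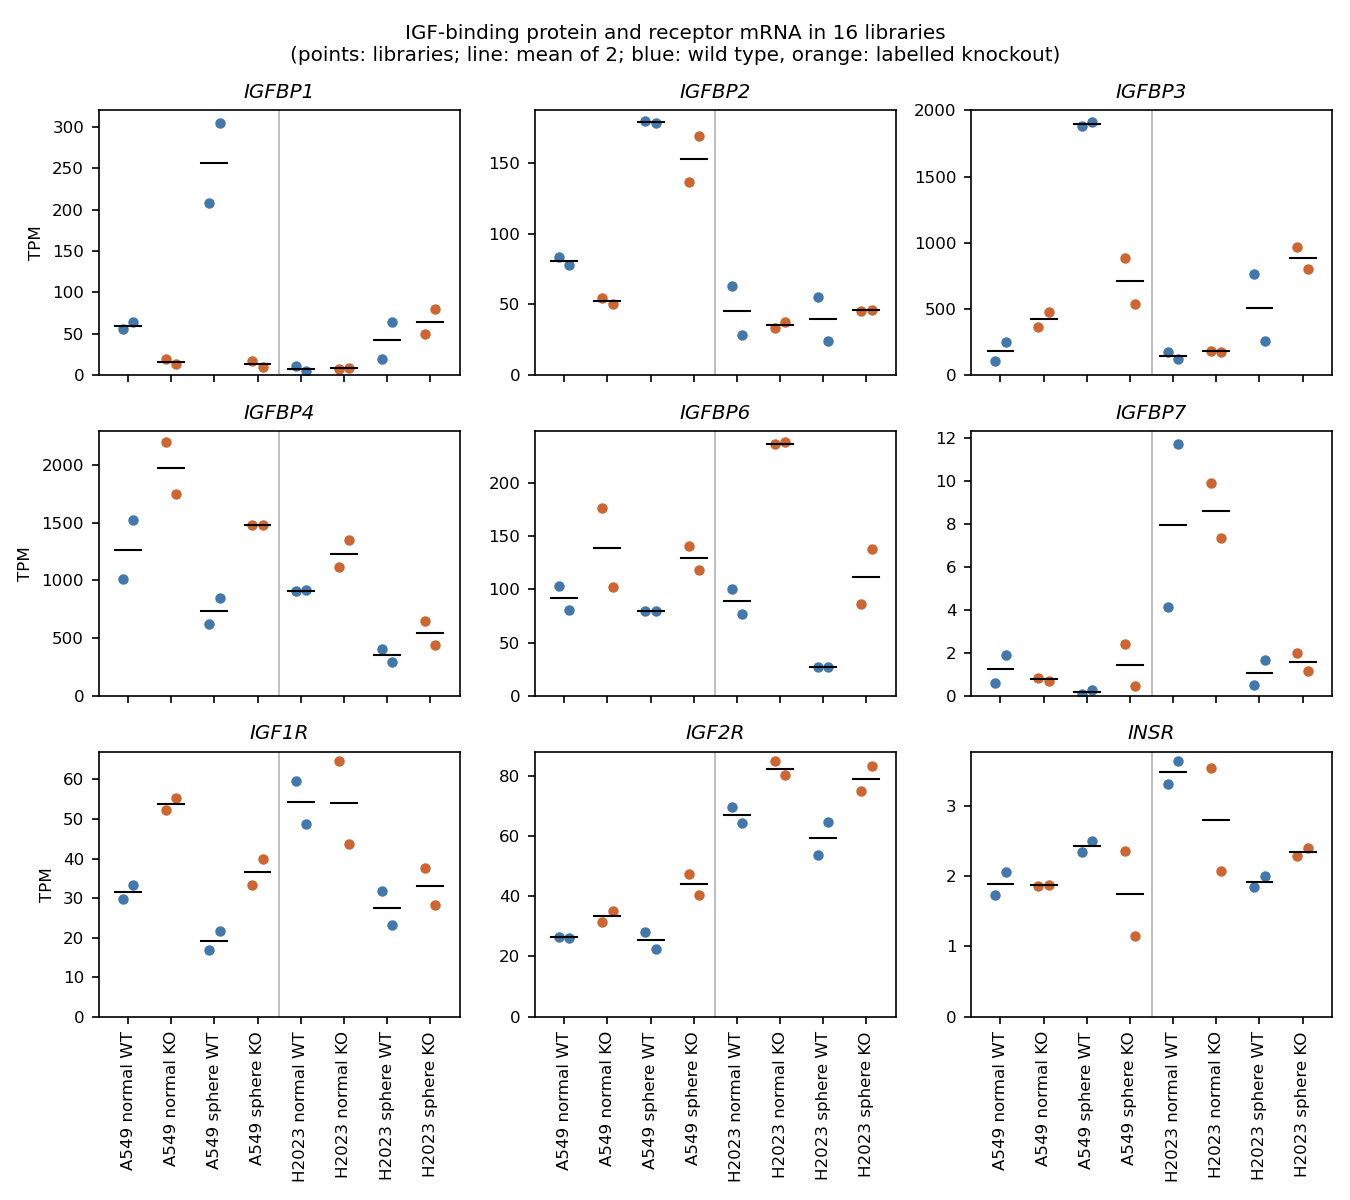
TPM of the 9 members in each library (points), by group, with the mean of 2 libraries as a line; each panel has its own axis from 0, blue is wild type and orange the libraries labelled knockout. IGFBP1 and IGFBP3 are highest in A549 wild-type oncospheres, and IGF2R is higher in every H2023 library than in every A549 library.

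The first comparison asked how the libraries labelled knockout differed from wild type in A549 normal culture. IGFBP1 fell and IGF1R rose. IGFBP1 measured 55.45 and 64.17 TPM in wild type but 19.53 and 12.87 in those labelled knockout. The groups did not overlap, and the difference was -1.85 with a standard error of 0.49 on the log2(TPM + 1) scale, a scale that understates changes of low genes (limma, adjusted p = 0.0227). IGF1R, the signalling receptor, measured 29.81 and 33.27 TPM in wild type but 52.18 and 55.27 in those labelled knockout. Its difference was 0.75 ± 0.22 (SE; adjusted p = 0.0314). Thus 2 of 9 members passed an adjusted p of 0.05, where 17.7% of all genes did. The median log2 difference of the 9 members was 0.33 and that of all genes -0.03. Leaving out any 1 of the 4 libraries ended both calls, with adjusted p from 0.0509 to 0.148 for IGFBP1 and from 0.07 to 0.171 for IGF1R, while the differences stayed within -2.13 to -1.56 and 0.67 to 0.83.

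The other members in A549 normal culture did not pass the test. IGFBP3 measured 105.76 and 252.69 TPM in wild type but 361.60 and 480.52 in those labelled knockout, so its groups did not overlap but its wild-type libraries lay far apart (difference 1.34 ± 0.46, adjusted p = 0.0655). IGFBP4 stood at 1013.23 and 1518.70 TPM against 2196.52 and 1747.77 TPM. IGFBP2 stood at 83.18 and 77.63 TPM against 54.71 and 50.21 TPM. The authors' deposited table, made with a count model, called 6 members in this comparison, where it called 20% of all genes. Besides IGFBP1 and IGF1R these were IGFBP2 (log2 fold change -0.58), IGFBP4 (0.69), IGFBP6 (0.66) and IGF2R (0.38).

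In A549 oncosphere culture 5 of 9 members passed the test, where 20.7% of all genes did. Of these 5, 3 rose and 2 fell (10.2% and 10.5% of all genes). The authors' deposited table called 7 of 9 members there, these 5 with IGFBP6 and INSR, and 19.9% of all genes. IGFBP1 measured 208.35 and 305.26 TPM in wild type but 16.54 and 9.37 in those labelled knockout. The wild-type libraries were the highest of the 16 for this gene. The log2 difference was -4.23 ± 0.49 (SE, limma, adjusted p = 9.17e-05), and it stayed between -4.61 and -3.85, always past the threshold, when any library was left out or a setting changed. The authors' deposited table gave -4.33 with an adjusted p of 1.91e-48.

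IGFBP3 fell as well. It measured 1884.44 and 1911.06 TPM in wild type but 884.19 and 535.57 in those labelled knockout, with no overlap. The log2 difference was -1.46 ± 0.46 (adjusted p = 0.0428), and leaving out any 1 of the 4 libraries ended this call, with adjusted p from 0.0522 to 0.258 and differences from -1.82 to -1.10. IGFBP4 went the other way, from 620.53 and 848.07 TPM in wild type to 1481.34 and 1480.10 TPM, a rise of 1.03 ± 0.25 (adjusted p = 0.0107). That call was lost without the first wild-type library (0.80, adjusted p = 0.105) and without the second library labelled knockout (1.03, adjusted p = 0.0586).

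Both IGF receptors rose in the A549 oncosphere libraries labelled knockout. IGF1R measured 16.74 and 21.76 TPM in wild type but 33.29 and 39.80 in those labelled knockout, a difference of 0.90 ± 0.22 (adjusted p = 0.011). Without the first wild-type library the value was 0.72 (adjusted p = 0.101), and without the second library labelled knockout 0.77 (adjusted p = 0.0947). IGF2R measured 28.20 and 22.34 TPM in wild type but 47.49 and 40.51 in those labelled knockout. Its difference of 0.78 ± 0.13 (adjusted p = 0.00128) kept its call without each library in turn. INSR measured 2.34 and 2.50 TPM in wild type and 2.36 and 1.15 in those labelled knockout. These overlap and did not pass the test (-0.35, adjusted p = 0.319), while the authors' deposited table gave INSR -0.98 with an adjusted p of 0.00115.

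IGFBP6 did not pass in A549 oncospheres with the spread of all 16 libraries. Wild-type oncospheres gave 79.66 and 79.82 TPM and the libraries labelled knockout 141.15 and 118.68 TPM, a difference of 0.69 ± 0.25 (adjusted p = 0.0696) with no overlap. It passed with the spread of the 4 compared libraries (adjusted p = 0.0223) and in the authors' deposited table (0.68, adjusted p = 0.00171). In the H2023 line it was the single member that passed with limma. H2023 normal culture gave 100.38 and 77.22 TPM of IGFBP6 in wild type and 236.41 and 238.21 TPM in those labelled knockout. Those libraries were the highest of the 16 for this gene, and the log2 difference was 1.42 ± 0.25 (adjusted p = 0.0104). Here 1 of 9 members passed, where 3% of all genes did. The call was lost without the second wild-type library (1.23, adjusted p = 0.112) and without either library labelled knockout (1.43 and 1.41, adjusted p = 0.075 and 0.0854).

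H2023 oncosphere culture gave IGFBP6 at 26.97 and 26.84 TPM in wild type but 86.40 and 138.16 in those labelled knockout. The wild-type libraries were the lowest of the 16 for this gene. The rise of 1.98 ± 0.25 (adjusted p = 0.00139) remained past the threshold without each library in turn, at 1.65 to 2.32. Again 1 of 9 members passed, where 5.56% of all genes did. When the spread was estimated from the 4 libraries of the comparison alone, IGFBP6 no longer passed in either H2023 culture (adjusted p = 0.112 and 0.212), and 0 of all genes passed there, with 3314 and 2828 genes at an unadjusted p under 0.05. The authors' deposited table called IGFBP6 in both H2023 cultures, with log2 fold changes of 1.49 (adjusted p = 5.27e-15) and 1.93 (adjusted p = 4.36e-09), and called 9.13% and 4.48% of all genes there. It also called IGFBP4 in H2023 normal culture at 0.44.

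In contrast to A549, IGFBP1 and IGFBP3 in H2023 oncospheres did not pass the test. IGFBP1 stood at 19.97 and 64.60 TPM in wild type and 49.90 and 79.66 in those labelled knockout. These ranges overlap (0.79 ± 0.49, adjusted p = 0.393). IGFBP3 stood at 762.76 and 257.58 TPM against 966.12 and 801.13 TPM, with the wild-type libraries far apart (0.99 ± 0.46, adjusted p = 0.244). IGFBP4 and IGF2R did not pass in H2023 with limma. For each, both libraries labelled knockout still lay above both wild-type libraries in normal and in oncosphere culture, as in A549. The differences in these cultures were 0.43 and 0.63 for IGFBP4 (adjusted p = 0.4 and 0.164) and 0.30 and 0.41 for IGF2R (0.27 and 0.0906).

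**Figure D3:**
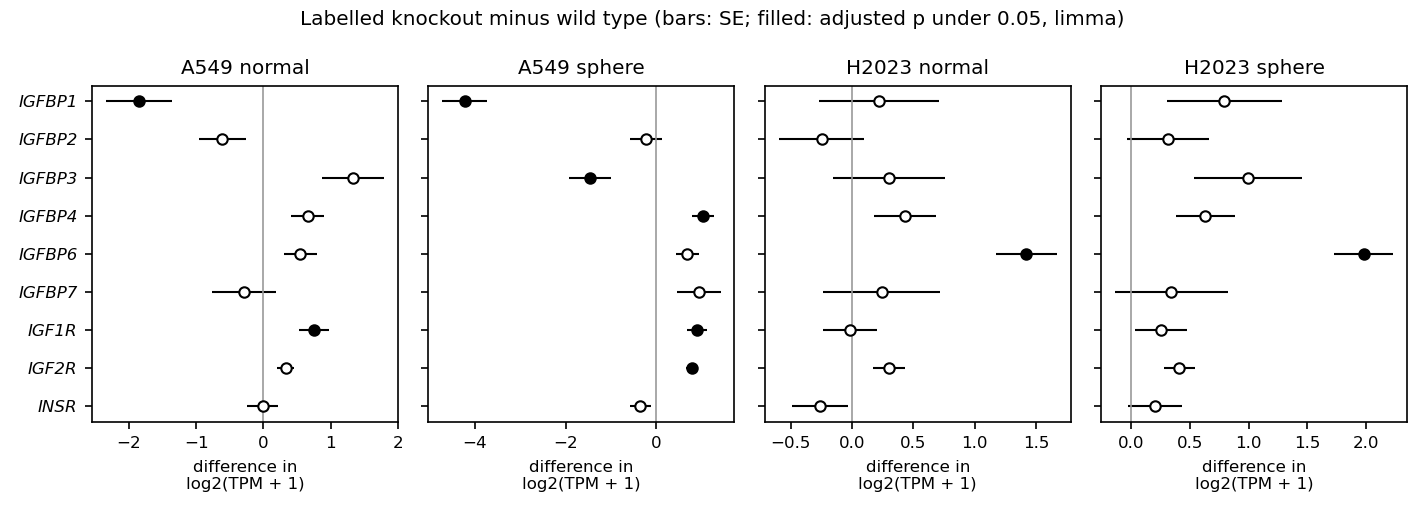
Difference in log2(TPM + 1) of libraries labelled knockout from wild type for the 9 members (rows), with standard errors, in 4 panels of line and culture that each have their own horizontal scale; filled points have an adjusted p under 0.05. IGFBP1 lies far to the left in A549 (-1.85 and -4.23), and IGFBP6 is the filled point of both H2023 panels (1.42 and 1.98).

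Whether these differences themselves differed between lines or cultures was tested in the same fit. In oncosphere culture the effect on IGFBP1 differed between the lines by 5.02 ± 0.69 (H2023 minus A549, adjusted p = 0.000574), and this held without each library in turn. IGFBP3 differed by 2.45 ± 0.66 (adjusted p = 0.0246) and IGFBP6 by 1.29 ± 0.35 (adjusted p = 0.0264). These were 3 of 9 members, where 16.3% of all genes passed. The IGFBP3 call was lost with the spread of the compared libraries alone (adjusted p = 0.0603), and without either A549 wild-type library, the second A549 library labelled knockout, the second H2023 wild-type library or the first H2023 library labelled knockout, with values from 1.67 to 3.23. The IGFBP6 call was lost without any 1 wild-type library or the second library labelled knockout of either line, with values from 0.96 to 1.63. In normal culture 0 of 9 members passed for the lines (12.1% of all genes) with limma, 3 had an unadjusted p under 0.05, and the IGFBP1 value was 2.06 ± 0.69 (adjusted p = 0.0734).

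Between the cultures of A549, IGFBP3 was the 1 of 9 members whose effect differed, by -2.81 ± 0.66 (oncosphere minus normal culture, adjusted p = 0.0216), where 9.71% of all genes passed. The call was lost without the first normal-culture wild-type library, the second normal-culture library labelled knockout, the first oncosphere wild-type library or the second oncosphere library labelled knockout, with values from -3.43 to -2.18. IGFBP1 gave -2.38 ± 0.69 (adjusted p = 0.0505). In H2023, 0 of 9 members passed with limma, where 0.00549% of all genes did, which is 1 gene. The unadjusted p of the members there ranged from 0.136 to 0.881, and 0 of them passed with any 1 library left out.

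The next comparison asked how the members differed between oncosphere and normal culture within a line and genotype. These contrasts use the same libraries as the genotype contrasts above and are not independent of them. In A549 wild type 5 of 9 members passed, where 41.5% of all genes did, with 3 higher and 2 lower (19.1% and 22.4% of all genes). IGFBP3 rose from 105.76 and 252.69 to 1884.44 and 1911.06 TPM, a difference of 3.53 ± 0.46 (adjusted p = 8.38e-05). IGFBP1 rose from 55.45 and 64.17 to 208.35 and 305.26 TPM (2.06 ± 0.49, adjusted p = 0.00507). Both calls held without each library in turn, and both genes had no overlap between the cultures.

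IGFBP2 rose with the culture in both A549 genotypes. In wild type it went from 83.18 and 77.63 to 179.37 and 178.07 TPM (1.14 ± 0.35, adjusted p = 0.019, lost without any 1 library, 0.0661 to 0.0787). In the libraries labelled knockout it went from 54.71 and 50.21 to 136.15 and 169.24 TPM (1.52 ± 0.35, adjusted p = 0.00783). The latter call was lost without the second normal-culture library (1.46, adjusted p = 0.0518) and without the second oncosphere library (1.36, adjusted p = 0.0584). It was the 1 of 9 members that passed in A549 labelled knockout, where 22.4% of all genes did (11.4% higher and 11% lower). IGFBP1 there stood at 19.53 and 12.87 TPM in normal and 16.54 and 9.37 TPM in oncosphere culture (-0.32 ± 0.49, adjusted p = 0.701). IGFBP3 stood at 361.60 and 480.52 TPM against 884.19 and 535.57 TPM (0.72 ± 0.46, adjusted p = 0.308).

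IGFBP4 and IGF1R fell with the culture in A549 wild type. IGFBP4 went from 1013.23 and 1518.70 to 620.53 and 848.07 TPM (-0.77 ± 0.25, adjusted p = 0.0238). Its call was lost without the second normal-culture library (-0.48, adjusted p = 0.202), without the first oncosphere library (-0.55, adjusted p = 0.183) and with the mitochondrial genes left out of TPM (-0.63, adjusted p = 0.0621). It was also lost with the spread of the 4 compared libraries alone (adjusted p = 0.0607). IGF1R went from 29.81 and 33.27 to 16.74 and 21.76 TPM (-0.69 ± 0.22, adjusted p = 0.0212). Its call was lost without mitochondrial genes (-0.56, adjusted p = 0.0567), without either normal-culture library (-0.77 and -0.62) and without the first oncosphere library (-0.51). In A549 labelled knockout neither gene passed, but for each both oncosphere libraries lay below both normal-culture libraries. IGF1R gave -0.55 ± 0.22 (adjusted p = 0.0908, or 0.0433 with the spread of the compared libraries alone) and IGFBP4 -0.40 ± 0.25 (adjusted p = 0.279). The knockout effect was not shown to differ between the cultures of A549 for IGF1R (0.14, adjusted p = 0.812) or IGFBP4 (0.37, adjusted p = 0.555).

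In H2023 6 of 9 members passed in each genotype, where 27.4% of all genes did in wild type and 32.5% in the libraries labelled knockout. In both genotypes IGFBP1 and IGFBP3 rose and IGFBP4, IGFBP6, IGFBP7 and IGF1R fell. Of all genes, 5.17% rose and 22.2% fell in wild type, and 9.76% rose and 22.7% fell in the libraries labelled knockout. With the spread of the 4 compared libraries alone, 4 of the 6 wild-type calls were lost, those of IGFBP1 (adjusted p = 0.133), IGFBP3 (0.16), IGFBP7 (0.108) and IGF1R (0.069). The median of all genes there was -0.18 in wild type and -0.12 in the libraries labelled knockout, and 0.06 and 0.04 once library medians were made equal. The direction of each called member was the same at equal medians. In the libraries labelled knockout, IGFBP1 rose from 7.92 and 9.15 to 49.90 and 79.66 TPM (2.75 ± 0.49, adjusted p = 0.00114). IGFBP3 rose from 185.20 and 173.80 to 966.12 and 801.13 TPM (2.29 ± 0.46, adjusted p = 0.00261). Both held without each library in turn.

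The H2023 wild-type libraries showed the same genes with more scatter. IGFBP1 went from 10.99 and 4.58 to 19.97 and 64.60 TPM (2.18 ± 0.49, adjusted p = 0.00625). The call was lost without the second normal-culture library (1.63, adjusted p = 0.0643) and without the second oncosphere library (1.36, adjusted p = 0.0595). IGFBP3 went from 174.30 and 121.05 to 762.76 and 257.58 TPM (1.60 ± 0.46, adjusted p = 0.0231). Without the first oncosphere library its difference was 0.82 (adjusted p = 0.196), and without the second normal-culture library 1.34 (adjusted p = 0.132).

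IGFBP4 and IGFBP6 fell in H2023 oncospheres. IGFBP4 went from 904.08 and 915.63 to 409.71 and 291.84 TPM in wild type (-1.39 ± 0.25, adjusted p = 0.00153) and from 1115.60 and 1349.10 to 647.15 and 441.10 TPM in those labelled knockout (-1.20 ± 0.25, adjusted p = 0.00278). IGFBP6 went from 100.38 and 77.22 to 26.97 and 26.84 TPM in wild type, a difference of -1.67 ± 0.25 (adjusted p = 0.000552). These 3 calls held without each library in turn. In the libraries labelled knockout the IGFBP6 difference was -1.11 ± 0.25 (adjusted p = 0.0048), and -0.78 without the first oncosphere library (adjusted p = 0.0523).

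IGFBP7, the weak IGF binder, was a low gene that fell in H2023. It went from 4.11 and 11.72 to 0.49 and 1.66 TPM in wild type (-2.02 ± 0.48, adjusted p = 0.0083) and from 9.89 and 7.32 to 1.98 and 1.14 TPM in those labelled knockout (-1.91 ± 0.48, adjusted p = 0.00902). In wild type the call was lost without the second normal-culture library (-1.36, adjusted p = 0.0839) and without the first oncosphere library (-1.60, adjusted p = 0.0654). In the libraries labelled knockout it was lost without the first normal-culture library (-1.72, adjusted p = 0.0679) and without the second oncosphere library (-1.68, adjusted p = 0.0671).

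IGF1R fell in H2023 oncospheres from 59.72 and 48.63 to 31.69 and 23.31 TPM in wild type (-0.96 ± 0.22, adjusted p = 0.00602). This was lost without the first normal-culture library (-0.82, adjusted p = 0.0549) and without the second oncosphere library (-0.75, adjusted p = 0.0577). In the libraries labelled knockout it went from 64.59 and 43.56 to 37.65 and 28.26 TPM (-0.68 ± 0.22, adjusted p = 0.0286). That call was lost at equal library medians (-0.53, adjusted p = 0.0723), without mitochondrial genes (-0.47, adjusted p = 0.136), with the spread of the 4 compared libraries alone (adjusted p = 0.134), without the first normal-culture library (-0.41) and without the second oncosphere library (-0.48). IGF2R did not pass in any of the 4 culture comparisons, with differences from -0.18 to 0.39. The value of 0.39 ± 0.13 was that of A549 labelled knockout, where the means were 33.3 TPM in normal and 44 TPM in oncosphere culture. The cultures did not overlap there, and the adjusted p of 0.0535 lay just over the threshold.

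**Figure D4:**
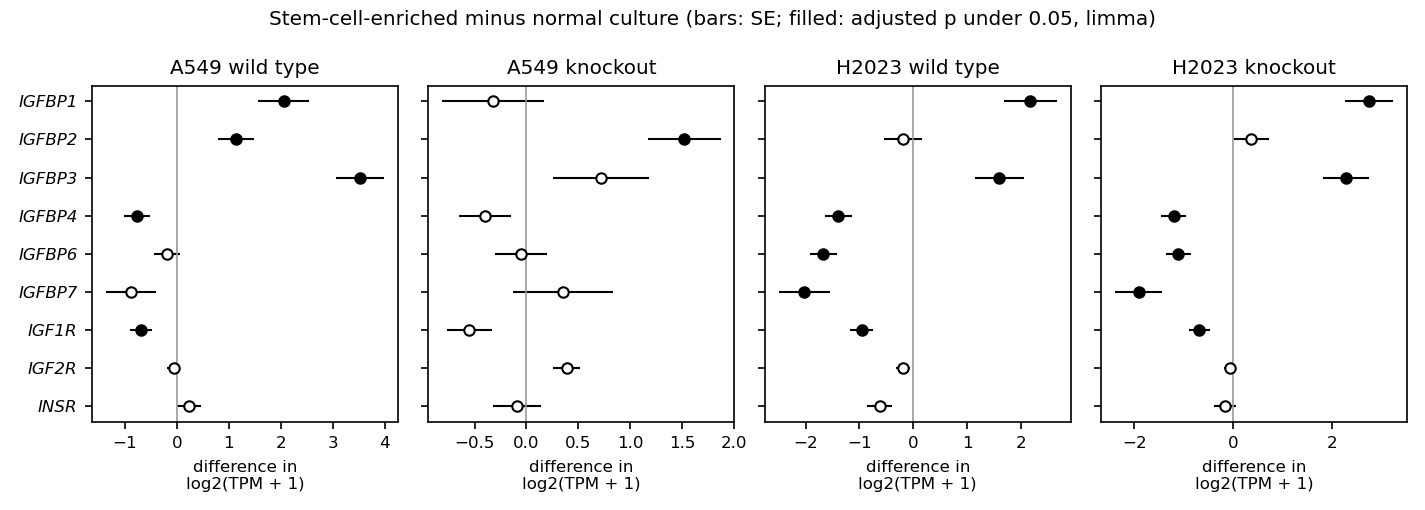
Difference in log2(TPM + 1) between oncosphere and normal culture for the 9 members (rows), with standard errors, in 4 panels of line and genotype label that each have their own horizontal scale; filled points have an adjusted p under 0.05. IGFBP1 and IGFBP3 are filled to the right in A549 wild type and both H2023 panels and open in A549 labelled knockout, and IGF1R is filled to the left in the same 3 panels.

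Between the wild-type lines, 5 of 9 members passed in normal culture and 6 of 9 in oncosphere culture, where 41.5% and 47.8% of all genes did. IGF2R was higher in H2023 in both cultures. In normal culture it measured 69.55 and 64.16 TPM in H2023 and 26.32 and 26.25 TPM in A549 (1.31 ± 0.13, adjusted p = 1.5e-05), and in oncosphere culture 53.78 and 64.60 TPM against 28.20 and 22.34 TPM (1.20 ± 0.13). IGFBP1 was lower in H2023, by -2.89 ± 0.49 in normal culture (adjusted p = 0.000592) and by -2.77 ± 0.49 in oncosphere culture (adjusted p = 0.00064). IGF2R and IGFBP1 kept these calls without each library in turn.

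The other members passed in 1 culture only, and whether their line differences differ between the cultures was not tested. In normal culture IGFBP7 (1.90 ± 0.48), IGF1R (0.76 ± 0.22) and INSR (0.63 ± 0.23) were also higher in H2023. IGFBP7 was lost without the first A549 library (1.48, adjusted p = 0.0718) and without the second H2023 library (1.25, adjusted p = 0.0824), and IGF1R without the first library of either line (0.68 and 0.61) and at equal medians (0.54, adjusted p = 0.0526). INSR had an adjusted p of 0.0403 and lost its call without any 1 library and with the spread of the compared libraries alone (adjusted p = 0.0558). In oncosphere culture 4 more binding proteins were lower in H2023, namely IGFBP2 (-2.25 ± 0.35), IGFBP3 (-2.10 ± 0.46), IGFBP4 (-1.07 ± 0.25) and IGFBP6 (-1.53 ± 0.25). These 4 kept their calls without each library in turn, with IGFBP3 ranging from -2.88 to -1.31 and IGFBP2 from -2.83 to -1.68.

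Other genes of the IGF pathway were read from lists of 63 symbols, of which 57 were measured. The ligand IGF2 was at most 0.79 TPM. IGF1, INS, IGFALS and INSRR were not found by symbol among the measured genes, so their levels are unknown here. IGFBP5 rose with oncosphere culture in A549 wild type (0.00 and 0.04 TPM to 1.83 and 3.61 TPM) and in H2023 wild type (0.38 and 3.42 TPM to 6.96 and 4.17 TPM), with differences of 1.82 ± 0.43 and 1.38 ± 0.43. With a pseudocount of 0.1 in place of 1 the A549 difference was 4.50. The H2023 call was lost without the first normal-culture library (0.54, adjusted p = 0.299), without the first oncosphere library (1.07, adjusted p = 0.168) and with the pseudocount of 0.1 (2.08, adjusted p = 0.0651). It was also lost with the spread of those 4 libraries alone (adjusted p = 0.237). Between the genotypes IGFBP5 did not pass with limma in any comparison. The authors' deposited table called it lower in the libraries labelled knockout in A549 oncosphere (-2.10), H2023 normal (-5.00) and H2023 oncosphere culture (-2.37).

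Of 7 genes that cut IGF-binding proteins or restrain those proteases, 4 passed and rose in A549 normal culture and 4 passed in A549 oncosphere culture, with 3 higher and 1 lower, where 17.7% and 20.7% of all genes passed. Their median difference was 1.18 and 0.92, against -0.03 and 0.03 for all genes. HTRA1, a secreted serine protease that cleaves IGF-binding proteins, went from 13.43 and 20.24 to 52.95 and 52.20 TPM in A549 normal culture (1.61 ± 0.23, adjusted p = 0.000583). In H2023 oncospheres it went from 20.45 and 11.51 to 47.76 and 43.95 TPM (1.51 ± 0.23, adjusted p = 0.00368). The groups did not overlap in either. H2023 normal culture gave 1.06 ± 0.23 (adjusted p = 0.0276), a call lost without the second wild-type library (0.89) and without either library labelled knockout (1.00 and 1.12). With the spread of the 4 libraries alone, neither H2023 call was made (adjusted p = 0.134 and 0.231). The A549 oncosphere difference of 1.37 ± 0.23 fell outside the naming rule and was chosen after its value was seen. HTRA1 was the 1 of 7 that passed in each H2023 culture with limma, where 3% and 5.56% of all genes did. The authors' deposited table called 2 of 7 in each, HTRA1 with PAPPA in normal culture and with ADAM12 in oncosphere culture (-1.82, adjusted p = 0.00537). The effect on HTRA1 was not shown to differ between the lines (-0.55, adjusted p = 0.292, and 0.14, adjusted p = 0.815).

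PAPPA, the metalloprotease that cleaves IGFBP4, rose in both A549 cultures, and its inhibitor STC1 rose in A549 normal culture. PAPPA went from 20.46 and 18.62 TPM in A549 wild-type oncospheres to 60.65 and 46.67 TPM in those labelled knockout (1.40 ± 0.22, adjusted p = 0.000684). The normal-culture difference of 1.25 ± 0.22 (adjusted p = 0.00235) was chosen after its value was seen. In H2023 both libraries labelled knockout lay below both wild-type libraries in each culture (-0.81 and -0.42, neither past the threshold with limma). The authors' deposited table called PAPPA lower in H2023 normal culture (-0.95, adjusted p = 3.43e-05). The effect differed between the lines by -2.06 ± 0.31 in normal culture (adjusted p = 0.00166) and -1.82 ± 0.31 in oncosphere culture (adjusted p = 0.002). STC1 went from 1.44 and 3.53 to 24.22 and 24.31 TPM in A549 normal culture (2.93 ± 0.50, adjusted p = 0.00214). In A549 oncospheres it measured 22.00 and 47.48 TPM in wild type and 51.67 and 75.17 in those labelled knockout, which did not pass (0.92, adjusted p = 0.227). The fall of ADAM28 in A549 oncospheres, from 5.70 and 3.15 to 0.81 and 0.52 TPM, was the 1 lower call (-1.67 ± 0.23, or -2.53 with a pseudocount of 0.1).

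Downstream of IGF1R, 4 and 5 of 11 adaptors and brakes passed in A549 normal and oncosphere culture, and 1 and 0 in H2023 with limma (2 and 1 at an unadjusted p under 0.05, 2 and 0 in the authors' deposited table). The share of all genes that passed also differed between the lines, at 17.7% and 20.7% in A549 and 3% and 5.56% in H2023. IRS1, the main docking protein of IGF1R, went from 16.19 and 13.72 to 32.27 and 35.57 TPM in A549 normal culture (1.13 ± 0.18, adjusted p = 0.00117). In A549 oncospheres it went from 7.65 and 9.37 to 29.07 and 28.90 TPM (1.66 ± 0.18, adjusted p = 4.7e-05). Both rises held in all alternatives, and the effect differed between the lines in both cultures (-1.40 ± 0.25, adjusted p = 0.0041, and -1.69 ± 0.25, adjusted p = 0.000857). Its relative IRS2 fell in A549 oncospheres and in H2023 normal culture. In the former it went from 34.54 and 38.64 to 12.08 and 14.20 TPM (-1.41 ± 0.29, adjusted p = 0.00408), and in the latter from 13.15 and 12.51 to 3.02 and 3.73 TPM (-1.66 ± 0.29, adjusted p = 0.00934). The H2023 call was lost without the second wild-type library (adjusted p = 0.0745), without either library labelled knockout (0.0864 and 0.0605) and with the spread of those 4 libraries alone (0.112). The authors' deposited table called IRS2 lower in both of these and in A549 normal culture (-0.63).

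**Figure D5:**
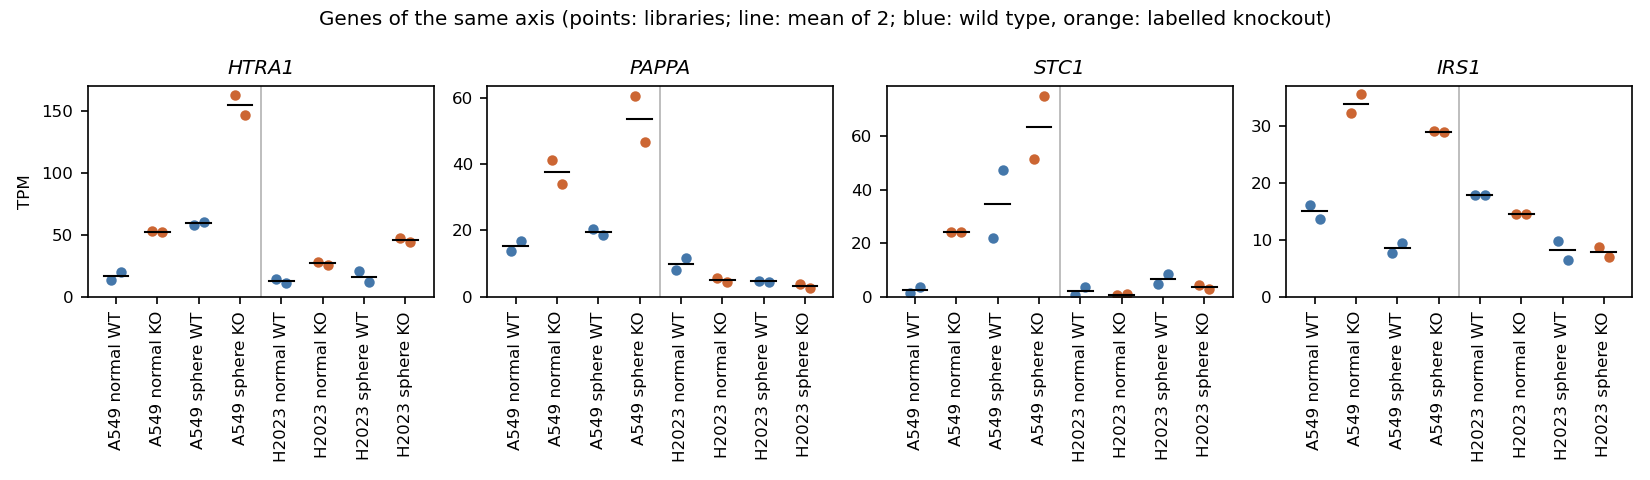
TPM of HTRA1, PAPPA, STC1 and IRS1 in each library (points), with the mean of 2 libraries as a line; each panel has its own axis from 0, blue is wild type and orange the libraries labelled knockout. HTRA1 is higher in the libraries labelled knockout of all 4 pairs, and IRS1 and PAPPA are higher in those of A549.

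FOXO factors, which insulin and IGF signalling hold in the cytoplasm, were listed with their known targets because IGFBP1 is a classical FOXO target. Of 11 such genes 8, 6, 5 and 5 rose with oncosphere culture in A549 wild type, A549 labelled knockout, H2023 wild type and H2023 labelled knockout, and 0 fell in any of them with limma, or at an unadjusted p under 0.05. Of all genes 19.1%, 11.4%, 5.17% and 9.76% rose in these comparisons. The medians of the 11 genes were 1.96, 0.99, 0.47 and 0.49, against -0.01, -0.01, -0.18 and -0.12 for all genes. PDK4, an inhibitor of pyruvate entry into the citric acid cycle, went from 19.87 and 46.60 to 299.53 and 300.33 TPM in A549 wild type (3.26 ± 0.36). In A549 labelled knockout PDK4 went from 11.50 and 8.57 to 209.24 and 121.87 TPM (3.88 ± 0.36, adjusted p = 2.34e-05). BCL6, a transcriptional repressor, went from 12.29 and 9.37 to 82.05 and 56.04 TPM in H2023 labelled knockout (2.55 ± 0.26). With limma 3, 3, 0 and 0 of the 11 passed between genotypes in A549 normal, A549 oncosphere, H2023 normal and H2023 oncosphere culture. Of all genes 17.7%, 20.7%, 3% and 5.56% did. In A549 normal culture 2 rose and 1 fell, PDK4 (-1.53 ± 0.36, adjusted p = 0.0128). In A549 oncosphere culture SESN1 rose (0.96 ± 0.27) and 2 fell, among them TXNIP (-2.15 ± 0.44, adjusted p = 0.00405). The knockout effect was lower in A549 oncosphere than normal culture for 4 of 11 (9.71% of all genes passed in either direction). The authors' count model called 4 and 6 of the 11 in A549, with PDK4 lower and SESN1 higher in oncosphere culture (-0.88 and 1.01). In H2023, 3 and 1 of them had an unadjusted p under 0.05, and the authors' deposited table called 2 and 0. FOXO activity was not measured, and whether it bears on the IGFBP1 levels was not tested.

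Of the 3 IGF2 mRNA-binding proteins, 1, 3, 2 and 3 fell with oncosphere culture in A549 wild type, A549 labelled knockout, H2023 wild type and H2023 labelled knockout with limma, and 0 rose, also at an unadjusted p under 0.05. Of all genes 22.4%, 11%, 22.2% and 22.7% fell there. IGF2BP1 went from 44.58 and 34.05 to 21.65 and 17.22 TPM in A549 wild type (-0.98 ± 0.18, adjusted p = 0.00116). Of 7 genes of mannose 6-phosphate sorting, the pathway that IGF2R serves, 0, 2, 1 and 1 passed in the genotype comparisons with limma, all upward, against 17.7%, 20.7%, 3% and 5.56% of all genes. In the first of these, A549 normal culture, 3 had an unadjusted p under 0.05 and the authors' deposited table called 1, GGA2, as lower (-0.41, adjusted p = 0.025). GNPTG, a subunit of the enzyme that makes the mannose 6-phosphate tag, passed in A549 oncospheres at 36.76 and 30.90 TPM against 49.25 and 44.43 TPM (0.46 ± 0.14, adjusted p = 0.0336). That call was lost without the second wild-type library (0.34) and without either library labelled knockout (0.39 and 0.53).

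The genes whose levels ran most like each member were found by Pearson correlation of log2(TPM + 1) over the 16 libraries, among 10768 genes with a mean of at least 5 TPM. The libraries share 2 lines and 2 cultures, so these values describe the pattern and carry no test. IGF2R was most like CSF1 (r = 0.978), MAP4K4 (0.978) and ZNF134 (0.972), and IGF1R most like FSTL1 (0.958), CHD3 (0.948) and TMEM237 (0.940). IGFBP4 was most like PDE4D (0.961), ANXA2 (0.955) and TBCB (0.951), and IGFBP2 most like SULT1A4 (0.976), MTARC2 (0.942) and MFSD3 (0.938). SULT1A4 has a near-identical copy, so its level is uncertain. IGFBP3 was most like MST1 (0.924), BHLHE40 (0.921) and CD82 (0.913), while IGFBP6 was most like CFDP1 (0.920), LINC01116 (0.918) and CCDC80 (0.870). IGFBP1 was most like LINC02532 (0.946), SERPINB7 (0.904) and NDUFV2 (0.875). Of the 2 low members, IGFBP7 was nearest to ADAT1 (0.914). INSR was nearest to JMJD1C (0.837), the lowest value for a nearest gene among the members.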

How the data were processed

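RNA was sequenced from 16 libraries, 2 in each of 8 groups of line, genotype label and culture. HISAT2, StringTie and the build GRCh38 are named in the submitters' processing notes, with no versions. Each combination of line and culture has a table of its own, 4 as deposited, with 18361 rows. In each of them, 119 gene identifiers stand on several rows with other symbols and the same values; the first row was kept, which left 18227 genes. Per the file headers, the deposited tables hold TPM for each library, and each library summed to between 991838 and 998125 TPM. They also hold the mean normalized count (a signal over 4 libraries), the log2 fold change with its standard error, a statistic used as a score, and a p-value with its adjusted form, all as the authors made them under the column names of DESeq2. The deposited statistic has the sign opposite to the fold change in every row, so directions come from the fold change. The line of a library was read from its table's name, and culture, genotype and replicate from its column's name.

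Raw counts were not used here, so limma 3.58.1 under R 4.3.3 was run two-sided on log2(TPM + 1), with the variance trended on the mean level. The 14 comparisons were contrasts of 1 fit of 8 group means over 16 libraries, with Benjamini-Hochberg adjustment over 18227 genes and a threshold of 0.05. No low gene was filtered out, so all 9 members were tested. The code was tested on simulated data. Alternatives were a pseudocount of 0.1, a filter of mean TPM of at least 1, only the compared libraries in the fit, equal library medians, TPM without mitochondrial genes, a replicate block, each library left out in turn, and the authors' deposited table. Beyond the 9 members and ZC3H12A, at most 2 genes that passed were named per pathway list and comparison (largest change, mean of at least 1 TPM), and 3 most similar genes per member. The members and lists were chosen with earlier results of these data known. Gene positions are from GENCODE (GRCh38), promoters from RefSeq (GRCh38.p14). One pathway list is not reported here.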

Additional observations from a re-analysis of the deposited data

Results flagged for a closer look

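The effect of the knockout label on 3 binding proteins differed between groups by the interaction contrasts of the limma fit. In oncosphere culture the effect on IGFBP1 was 5.02 higher in H2023 than in A549 on the log2 scale, with both A549 libraries labelled knockout below both wild-type libraries (-4.23) and overlapping values in H2023 (0.79). IGFBP3 differed between the lines in the same culture by 2.45, from -1.46 in A549 to 0.99 in H2023. IGFBP6 differed by 1.29, from 0.69 in A549 to 1.98 in H2023. As given above, the IGFBP1 call held without each library in turn, while the IGFBP3 and IGFBP6 calls depended on single libraries. The IGFBP3 call was also lost with the spread of the compared libraries alone (limma, adjusted p = 0.0603).

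Between the cultures of A549, the effect on IGFBP3 differed by -2.81, from 1.34 in normal culture to -1.46 in oncosphere culture. That call also depended on single libraries, as given above. The titles name a single clone of each line for the libraries labelled knockout.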

How the results depend on the processing

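No called value of a member changed sign under any alternative. INSR, not called in either, was -0.01 in A549 and -0.26 in H2023 normal culture with limma and 0.07 and 0.16 in the authors' deposited table. Of the 42 member differences that passed the test, 42 kept their call with a filter of mean TPM of at least 1, 41 with a pseudocount of 0.1, 41 with the replicate block, 39 at equal library medians, 38 without mitochondrial genes and 32 with only the libraries of the groups compared. Of 184 fits that left out 1 library, 118 kept the call; a group then reduced to 1 library was assumed to vary like the others. The deposited table kept 9 of 9 genotype calls.

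The number of members that passed moved as follows in the A549 genotype comparisons and wherever an alternative changed it by over 1.5 times. For knockout over wild type, A549 normal culture went from 2 to 4 with the replicate block, to 3 with only the compared libraries and to 6 in the authors' deposited table. A549 oncosphere culture went from 5 to 6 with only the compared libraries or the block and to 7 in the authors' table. H2023 normal culture went from 1 to 0 with only the compared libraries and to 2 in the authors' table, and H2023 oncosphere culture from 1 to 0 with only the compared libraries and to 2 with the block. For oncosphere over normal culture, A549 wild type went from 5 to 3 without mitochondrial genes and H2023 wild type from 6 to 2 with only the compared libraries. A549 labelled knockout went from 1 to 2 with the filter, only the compared libraries, equal medians, no mitochondrial genes or the block. The culture difference of the knockout effect in A549 went from 1 to 2 with the filter, only the compared libraries, no mitochondrial genes or the block, and the line difference in normal culture from 0 to 1 with only the compared libraries and to 2 with the block. The cause of these moves was not tested. With 1 library left out, the IGFBP1 and IGF1R genotype calls of A549 normal culture ended in each fit. Members counted below for that comparison are therefore other members.

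Leaving out 1 library gave 0 to 2 members in A549 normal, 2 to 4 in A549 oncosphere, 0 to 1 in H2023 normal and 1 to 2 in H2023 oncosphere culture for the genotype label. It gave 2 to 4, 0 to 1, 3 to 5 and 4 to 6 for culture (A549 wild type, A549 labelled knockout, H2023 wild type, H2023 labelled knockout) and 2 to 4 and 6 to 7 for line in normal and oncosphere culture. For the differences of the knockout effect it gave 0 to 1 and 0 to 0 between cultures (A549, H2023), and 0 to 1 and 1 to 3 between lines (normal, oncosphere).

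Over all genes, using only the compared libraries moved the genotype calls from 3233 to 1971, 3780 to 2413, 546 to 0 and 1014 to 0 (A549 normal, A549 oncosphere, H2023 normal, H2023 oncosphere), the H2023 wild-type culture calls from 4986 to 1105 and the oncosphere line difference of the knockout effect from 2966 to 1795. The H2023 wild-type culture calls were 3650 at equal medians, with 51.7% higher in place of 18.9%, and 3344 without mitochondrial genes, with 45.3% higher. The share of higher calls at equal medians was 35.6% in place of 56.9% for the H2023 oncosphere genotype comparison, 48.2% in place of 30% for H2023 labelled knockout between cultures, 41.8% in place of 64.1% for the lines in normal culture and 47.3% in place of 57.6% for the oncosphere line difference. Without mitochondrial genes it was 56.6% in place of 46% for A549 wild type between cultures, 51.8% for H2023 labelled knockout between cultures and 47.6% in place of 57.7% for the A549 culture difference of the knockout effect. The culture difference in H2023 had 1 gene, 0 with only the compared libraries and 4 with the filter.

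Replicate numbers are shared between groups, but no label says they mark a common batch and each comparison has only 2 pairs. Same-numbered libraries deviated together with correlations over genes from 0.0275 to 0.461 in the genotype comparisons. TPM gives no depth, so the counting error of the low members IGFBP7 and INSR is unknown.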
